A study of Mus musculus with 38 samples.

Results

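Dazl, Ddx4, Mael, Tdrd1, Sycp1, Sycp3, Hormad1, Stk31, Slc25a31 and Tex101 are genes that mouse germ cells use and embryonic stem cells keep largely silent. These 10 genes, of 21938 protein-coding genes in the annotation, were taken by name and not by any measured value, and each was read over its gene body plus 5000 bp on either side (GRCm38, GENCODE M21). H3K27me3, H3K9me3, H3K4me3, H3K27ac and H3K4me1 were measured by ChIP-seq, in which antibody-bound chromatin is sequenced, and set side by side at these genes for 2 genotypes of the mouse embryonic stem cell line ES-E14TG2a, grown in serum with LIF and collected at 0 h. IκBα-WT cells (WT, labelled IkappBalpha+/+) carried a non-targeting guide, and IκBα-KO cells (KO, labelled IkappBalpha-/-) had Nfkbia, which encodes the NF-κB inhibitor IκBα, disrupted with CRISPR/Cas9. Each mark had 3 WT and 3 KO libraries, 30 in all, and the study's methods describe separate clones, each grown from 1 cell, so a difference between genotypes is also a difference between sets of 3 clones. The remaining 8 of the 38 samples were inputs, which entered only as the input reads listed with each called region.

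Many germline genes have promoters rich in CpG that are shut in cells outside the germ line. In embryonic stem cells a variant Polycomb complex that holds MGA, MAX, L3MBTL2, PCGF6 and E2F6 binds such promoters through E-box and E2F-type sequences, and the H3K9 methyltransferases SETDB1 and EHMT1/EHMT2, histone deacetylases and DNA methylation also take part in their silencing. H3K27me3 is laid down by Polycomb repressive complexes and H3K9me3 marks heterochromatin, whereas H3K4me3 and H3K27ac mark active promoters and H3K4me1 is found around promoters and enhancers. The comparison asks whether the repressive marks were lost, or the active marks gained, at these genes when IκBα was missing.

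The genes differ in what they do. Dazl and Ddx4 encode RNA-binding regulators of germ cell development, and Mael and Tdrd1 act in the piRNA pathway that represses transposons. Sycp1 and Sycp3 encode parts of the synaptonemal complex and Hormad1 a protein of the meiotic chromosome axis. Slc25a31 encodes the ADP/ATP carrier of male germ cells, Tex101 a surface protein of germ cells, and Stk31 a Tudor domain protein with a kinase-like domain. Dazl lies at chr17:50279395-50293636, Ddx4 at chr13:112598333-112652475, Mael at chr1:166201201-166238747, Sycp1 at chr3:102818499-102936100 and Tex101 at chr7:24668007-24676675, all on the minus strand. The genes on the plus strand are Tdrd1 at chr19:56826209-56870012, Sycp3 at chr10:88459569-88473236, Hormad1 at chr3:95559677-95587671, Slc25a31 at chr3:40708855-40726096 and Stk31 at chr6:49395604-49469501.

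The promoters of 6 of these genes are printed below, chosen by calls within 1000 bp of the start site. In Dazl, Ddx4, Mael, Sycp1 and Slc25a31, H3K9me3 was called there in every WT library. Sycp3 had an H3K4me3 peak there in every WT and no KO library, and this peak lies downstream of the printed sequence. Each runs from 250 bases before to 50 bases after a RefSeq start site (GRCm38.p6) and reads 5′ to 3′ on the gene's strand. Capitals mark the E-box CACGTG and the E2F-type sequence GCGGGA or its reverse complement TCCCGC. The windows are chr13:112652261-112652560 for Ddx4, chr1:166238695-166238994 for Mael, chr3:102936051-102936350 for Sycp1 and chr17:50293571-50293870 for Dazl on the minus strand, and chr3:40708621-40708920 for Slc25a31 and chr10:88459337-88459636 for Sycp3 on the plus strand.
Ddx4: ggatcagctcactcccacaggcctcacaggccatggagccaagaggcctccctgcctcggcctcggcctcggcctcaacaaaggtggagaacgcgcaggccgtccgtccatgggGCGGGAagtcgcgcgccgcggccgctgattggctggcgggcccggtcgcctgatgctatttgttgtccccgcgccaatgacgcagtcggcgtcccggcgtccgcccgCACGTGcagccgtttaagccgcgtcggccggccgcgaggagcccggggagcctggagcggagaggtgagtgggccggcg
Mael: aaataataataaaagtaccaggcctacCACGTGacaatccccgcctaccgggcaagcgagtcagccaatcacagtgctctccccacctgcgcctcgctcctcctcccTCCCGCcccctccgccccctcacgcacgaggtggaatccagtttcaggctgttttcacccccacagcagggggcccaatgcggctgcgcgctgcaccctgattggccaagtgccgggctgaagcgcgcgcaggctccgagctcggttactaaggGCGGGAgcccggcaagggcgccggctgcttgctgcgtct
Sycp1: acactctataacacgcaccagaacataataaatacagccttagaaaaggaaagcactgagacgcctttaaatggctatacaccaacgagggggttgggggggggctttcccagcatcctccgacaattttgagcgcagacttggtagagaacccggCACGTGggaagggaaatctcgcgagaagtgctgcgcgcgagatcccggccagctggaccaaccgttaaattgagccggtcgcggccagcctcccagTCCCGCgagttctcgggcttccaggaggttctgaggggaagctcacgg
Slc25a31: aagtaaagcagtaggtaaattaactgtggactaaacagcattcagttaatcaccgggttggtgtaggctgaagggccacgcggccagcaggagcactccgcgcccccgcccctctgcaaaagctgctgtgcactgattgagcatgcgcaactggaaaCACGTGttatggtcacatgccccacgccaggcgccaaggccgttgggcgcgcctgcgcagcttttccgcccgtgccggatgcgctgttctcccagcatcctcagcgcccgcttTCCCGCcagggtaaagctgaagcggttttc
Sycp3: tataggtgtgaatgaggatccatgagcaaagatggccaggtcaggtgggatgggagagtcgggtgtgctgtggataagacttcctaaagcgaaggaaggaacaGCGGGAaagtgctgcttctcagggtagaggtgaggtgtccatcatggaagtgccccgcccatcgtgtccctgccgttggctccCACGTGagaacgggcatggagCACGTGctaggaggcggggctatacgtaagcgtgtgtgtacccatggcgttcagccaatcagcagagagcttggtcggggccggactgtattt
Dazl: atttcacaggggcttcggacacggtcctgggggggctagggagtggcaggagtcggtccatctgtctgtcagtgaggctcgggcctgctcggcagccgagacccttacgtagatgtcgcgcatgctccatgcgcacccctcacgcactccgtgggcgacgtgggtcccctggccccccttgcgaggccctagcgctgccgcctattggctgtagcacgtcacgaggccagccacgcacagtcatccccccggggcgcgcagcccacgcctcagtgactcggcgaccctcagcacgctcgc

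An E-box lay in a promoter of 8 of the 10 genes, and it is present in 7.15% of the 32851 promoters of the RefSeq table and in at least 1 promoter of 8.09% of its 27025 genes. The E2F-type sequence was found in 6 of the 10, against 22.0% of these 27025 genes, and both sequences in the same 6, against 2.65%. Over the 16539 protein-coding genes with a promoter sequence the shares were 9.19% (E-box), 29.2% (E2F-type) and 3.69% (both). None of these shares was matched for CpG content. Sycp3 and Hormad1 each held a pair of E-boxes, at −64 and −43 in Sycp3 and at −57 and −20 in Hormad1, counted from the start site to the first base of the match. In the other genes the E-box lay at −29 (Ddx4), −94 (Sycp1), −93 (Slc25a31), −223 (Mael), −120 or −55 (the 2 RefSeq starts of Stk31) and −77 or −11 (2 starts of Tdrd1). Neither sequence was in the windows of Dazl and Tex101, and the Tex101 start site in RefSeq lies 4625 bp inside the GENCODE gene. The ratio of observed to expected CpG ranged from 0.67 to 0.98 over the genes' first-listed promoters, against a median of 0.38 over all promoters. No E-box overlapped an E2F-type match, and a match in these letters is a description of the sequence and not a measured binding site.

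The H3K4me3 lists held 21836 to 26806 peaks per library and gave no read counts. The called regions of a library held 8910890 to 10938375 ChIP reads in the H3K27me3 lists and 8548342 to 12105343 in the H3K9me3 lists. They held 22943091 to 28339766 in the H3K27ac lists and 34736939 to 35951506 in the H3K4me1 lists. Regions were listed only where a library passed the caller's threshold, so a missing region means that none was called at that depth. Histone calls do not check the Nfkbia disruption itself. As a check of the cell type, H3K27me3 lay at the promoters of 1 of 8 genes that embryonic stem cells express and of 8 of 8 genes of differentiated lineages in both genotypes, whereas H3K27ac (7 of 8 in each list) and H3K9me3 (0 of 8 in each) did not tell the lists apart. Around the 10 germline genes (within 1 Mb) the ratio of KO to WT input reads over called regions was 1.09 to 1.14 (H3K27me3), 1.05 to 1.16 (H3K9me3), 0.93 to 0.98 (H3K27ac) and 0.94 to 0.99 (H3K4me1). Over all called regions, input reads per kb were 17.21 in WT and 19.75 in KO for H3K27me3 and 20.9 and 22.26 for H3K9me3. They were 31.36 and 30.92 for H3K27ac and 31.05 and 30.73 for H3K4me1. At some genes input differed more, in either direction: 11.42 and 16.39 at Dazl (H3K27me3), 37.69 and 26.59 at the Sycp1 promoter (H3K4me1). At Stk31 (H3K9me3) it was 20.67 and 20.66. The part of input in the densities was not tested.

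Calls of the repressive marks were largely kept. No gene of the 10 lost or gained H3K27me3 or H3K9me3 at its promoter by the rule of 3 of 3 libraries of one genotype and 0 of 3 of the other, with the promoter taken from 5000 bp upstream to 100 bp downstream of the start site. Over all protein-coding genes, 0.602% had H3K27me3 there in WT only and 0.479% in KO only, and for H3K9me3 the shares were 0.529% and 0.0912%. At these percentages less than 1 gene of 10 would be counted in any case, so the count of 0 is no contrast with other genes. Within 1000 bp of the start site, H3K27me3 was called at 10 of 10 genes in 5 of the 6 libraries, and at 9 in KO2, where Tex101 had none, beside 34.8% to 36.5% of all protein-coding genes per library.

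**Figure D1:**
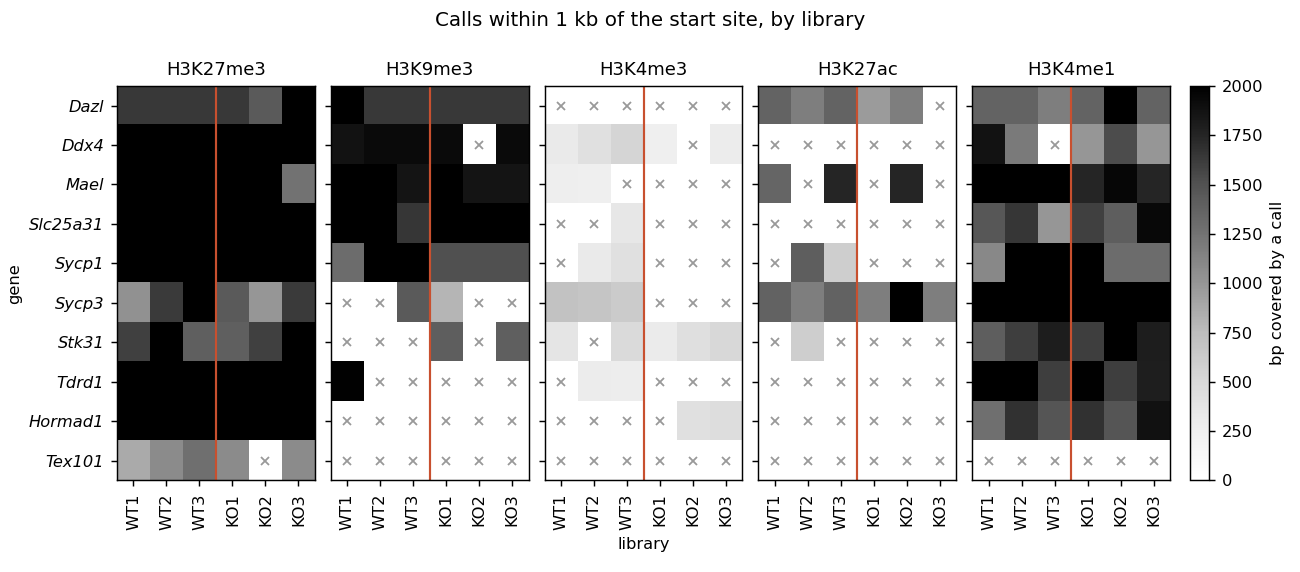
Base pairs covered by called regions within 1000 bp of the start site (2001 bp in all) for 10 germline genes (rows) and the 3 WT and 3 KO libraries (columns) of each of the 5 marks, with a cross where nothing was called. H3K27me3 fills nearly the whole grid in both genotypes, H3K9me3 fills the rows of Dazl, Ddx4, Mael, Sycp1 and Slc25a31 except Ddx4 in KO2, and H3K4me3 is called at 4 to 6 genes per WT library and at 2 to 3 per KO library.

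H3K27me3 covered the start sites of all 10 genes with similar read densities in WT and KO. The densities below are ChIP reads per kb of called sequence, scaled to the library's effective depth, and they were tested in edgeR (quasi-likelihood test, p adjusted by Benjamini-Hochberg over all regions called in all 6 libraries, covered length as an offset). At the Ddx4 start site the 3 WT libraries had 47.2, 59.4 and 49.0 scaled reads per kb and the 3 KO libraries 51.3, 42.6 and 50.7, which overlap. Mael lay under the longest of these regions, called over 35200 to 38600 bp, with 46.6, 52.8 and 51.3 in WT against 49.9, 47.2 and 51.2 in KO. Among the meiotic genes, Sycp3 had the lowest density of the 10, with 25.9, 27.3 and 27.5 in WT and 25.6, 28.8 and 27.6 in KO. The log2 difference of KO minus WT at the 10 start sites ranged from −0.26 at Sycp1 (SE 0.133, edgeR quasi-likelihood test, Benjamini-Hochberg adjusted p = 0.393) to 0.11 at Slc25a31 (SE 0.0964, adjusted p = 0.689). By edgeR and by DESeq2, 0 of the 13 H3K27me3 regions in the gene windows passed in either direction (0 at an unadjusted edgeR p under 0.05), where 1.7% of 18809 regions were higher and 1.04% lower in KO. Covered length over the whole window was lower in all 3 KO than in all 3 WT libraries for 1 gene of 10, Mael, and higher for 0, against 7.61% and 10.9% of the genes with a call.

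H3K9me3 formed short regions over the start sites of 5 genes in all 3 WT libraries: Dazl, Ddx4, Mael, Sycp1 and Slc25a31. In KO all of these regions were called in 3 of 3 libraries, except the region of Ddx4, which was called in 2. This pattern was rare in the genome: H3K9me3 was called within 1000 bp of the start site at 5 or 6 of the 10 genes per WT library and at 4 to 7 per KO library, against 6.39% to 6.7% and 5.15% to 6.01% of all protein-coding genes.

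At Dazl, which is needed for germ cells to commit to their fate, the H3K9me3 region ran from −3.2 to 1.2 kb of the start site (chr17:50292401-50296800) and held 124 to 156 ChIP reads in WT and 108 to 143 in KO. The scaled densities were 41.0, 43.2 and 59.2 per kb in WT and 57.8, 46.3 and 50.6 in KO, a log2 difference of 0.13 (SE 0.177, edgeR quasi-likelihood test, Benjamini-Hochberg adjusted p = 0.865). At Ddx4, the germ cell RNA helicase, unscaled densities of the called region (chr13:112650601-112653600) were 75.0, 50.8 and 60.9 reads per kb in WT, 53.9 in KO1 and 40.8 in KO3, beside input densities of 22.5 to 27 per kb. Both KO libraries with a call thus lay within or below the WT range, and since KO2 had no call the region was not tested.

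At Mael the start-site region (chr1:166233801-166240400) had 43.5, 38.6 and 34.1 scaled reads per kb in WT and 28.8, 37.7 and 32.8 in KO, and the groups overlap (log2 difference −0.23, SE 0.165, edgeR quasi-likelihood test, Benjamini-Hochberg adjusted p = 0.698). At Slc25a31 (chr3:40706601-40710600) the values were 49.8, 44.5 and 61.8 in WT and 47.1, 41.3 and 48.7 in KO (log2 difference −0.18, SE 0.17, adjusted p = 0.783 by the same test). Sycp1, the transverse filament protein of the synaptonemal complex, had 43.0, 41.9 and 43.2 in WT and 45.8, 63.9 and 63.0 in KO over chr3:102925601-102939600. All 3 KO values lay above the WT values, with a log2 difference of 0.41 (SE 0.134), which did not pass the edgeR quasi-likelihood test after Benjamini-Hochberg adjustment (adjusted p = 0.286). The called length of this Sycp1 region was 9400, 11800 and 10200 bp in WT and 10000, 4000 and 6200 bp in KO, so the 2 denser KO libraries were also the ones with the shorter call.

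**Figure D2:**
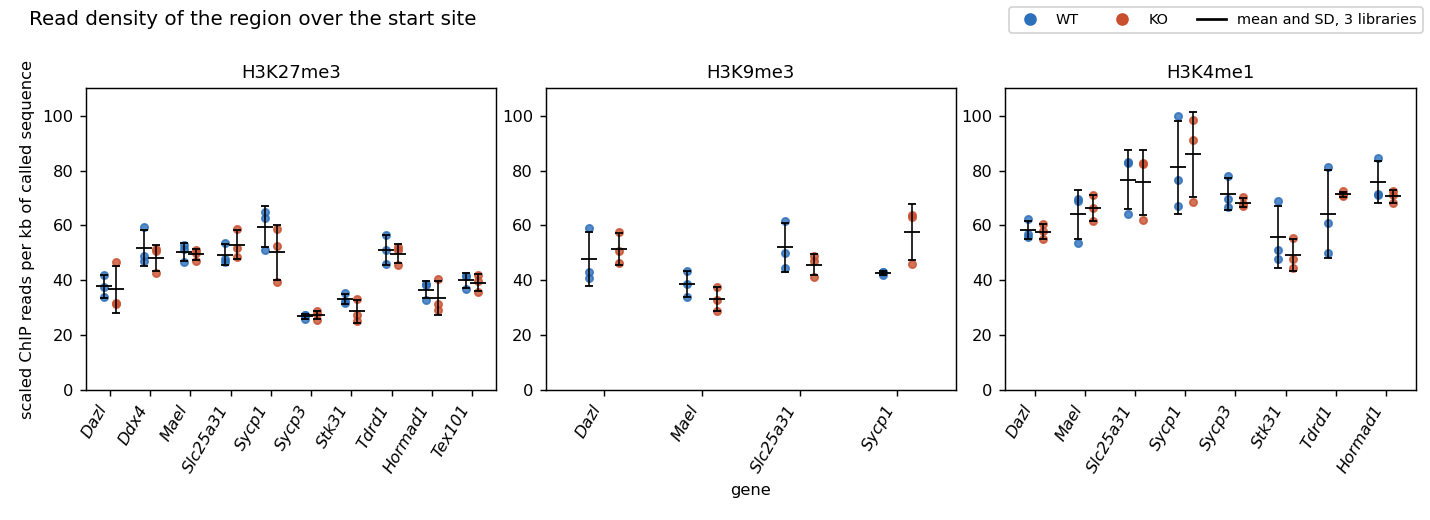
Scaled ChIP reads per kb of called sequence at start-site regions of the germline genes that were called in all 6 libraries, for H3K27me3, H3K9me3 and H3K4me1, with 1 point per library and the mean and SD of 3 libraries per genotype. WT and KO points overlap for most genes, and for H3K9me3 the KO libraries lie above WT at Sycp1 alone (57.6 ± 10.2 against 42.7 ± 0.71).

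The other 5 genes had H3K9me3 at the GENCODE start site in at most 2 libraries of a genotype. Sycp3 had it in WT3 and KO1, Stk31 in KO1 and KO3 and Tdrd1 in WT1 only. Hormad1 had its region upstream instead, from −4.9 to −2.1 kb, in all WT libraries and in KO1 and KO2. In Tex101 it lay inside the gene, at 1.1 to 7.1 kb from the GENCODE start site, in all WT libraries and in KO1. The merged region also spans the RefSeq start site of Tex101, which lies 4625 bp inside the GENCODE gene. Calls covered 3400, 6000 and 1400 bp there in WT and 4200, 0 and 0 bp in KO. The Stk31 start-site calls were weak, with 56 ChIP reads over 1400 bp in KO1 and 68 over 2800 bp in KO3, at log2 values over input of 0.99 and 0.57.

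Further inside the genes H3K9me3 often lay over repeats. The start-site regions were 12.8% to 31.9% soft-masked as repeats and the intragenic regions of Sycp1, Stk31 and Mael 42.1% to 96.6%, whereas those of Tdrd1 and Tex101 were 9.76% and 20.5%, beside 29.4% to 35.0% of the chromosomes that hold these genes. Of the 23 merged H3K9me3 regions in the gene windows, 1 was called in 3 of 3 WT and 0 of 3 KO libraries and 0 the other way, against 2.58% and 0.427% of 61378 regions genome-wide. That region lay in Mael, 16.7 to 22.1 kb from the start site (chr1:166216601-166222000), and was 79.3% soft-masked. It was weak in WT, with 36.9, 25.2 and 19.4 ChIP reads per kb beside 18.9, 21.4 and 21 input reads per kb. The densest H3K9me3 region among the 10 genes lay inside Stk31, 13.8 to 26.6 kb from the start site (chr6:49409401-49422200), with 613 to 879 ChIP reads per library. Its scaled density was 77.7, 65.4 and 80.4 per kb in WT and 73.8, 87.3 and 68.2 in KO, a log2 difference of 0.03 (SE 0.11, edgeR quasi-likelihood test, Benjamini-Hochberg adjusted p = 0.949).

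By edgeR and by DESeq2, 0 of the 10 H3K9me3 regions of these genes that could be tested passed in either direction (1, at Sycp1, had an unadjusted edgeR p under 0.05), where 0.168% of 27342 regions were higher and 0.267% lower in KO. Of these 10 regions, 4 lay over a start site. Only regions called in all 6 libraries entered the test, so it could not find a call lost in a KO library. Regions missing in some KO library (Ddx4, Hormad1, Tex101) or in WT (Stk31 start site) were therefore outside it. Covered length over the window was lower in all KO than in all WT libraries at 2 genes of 10, Sycp1 and Hormad1, and higher at 0, beside 11.4% and 4.76% of the genes with a call. Summed over the 10 windows, H3K9me3 calls covered 60800, 66600 and 65400 bp in WT and 63600, 40200 and 57200 bp in KO, so KO2 was the lowest of the 6 libraries and KO1 lay within the WT range. Genome-wide, H3K9me3 calls covered 204.6, 207.3 and 201.7 Mb in WT and 185.7, 172.5 and 184.9 Mb in KO. KO2 was the lowest there too and had the fewest calls (35979), so a call missing in KO2 is not particular to these genes.

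**Figure D3:**
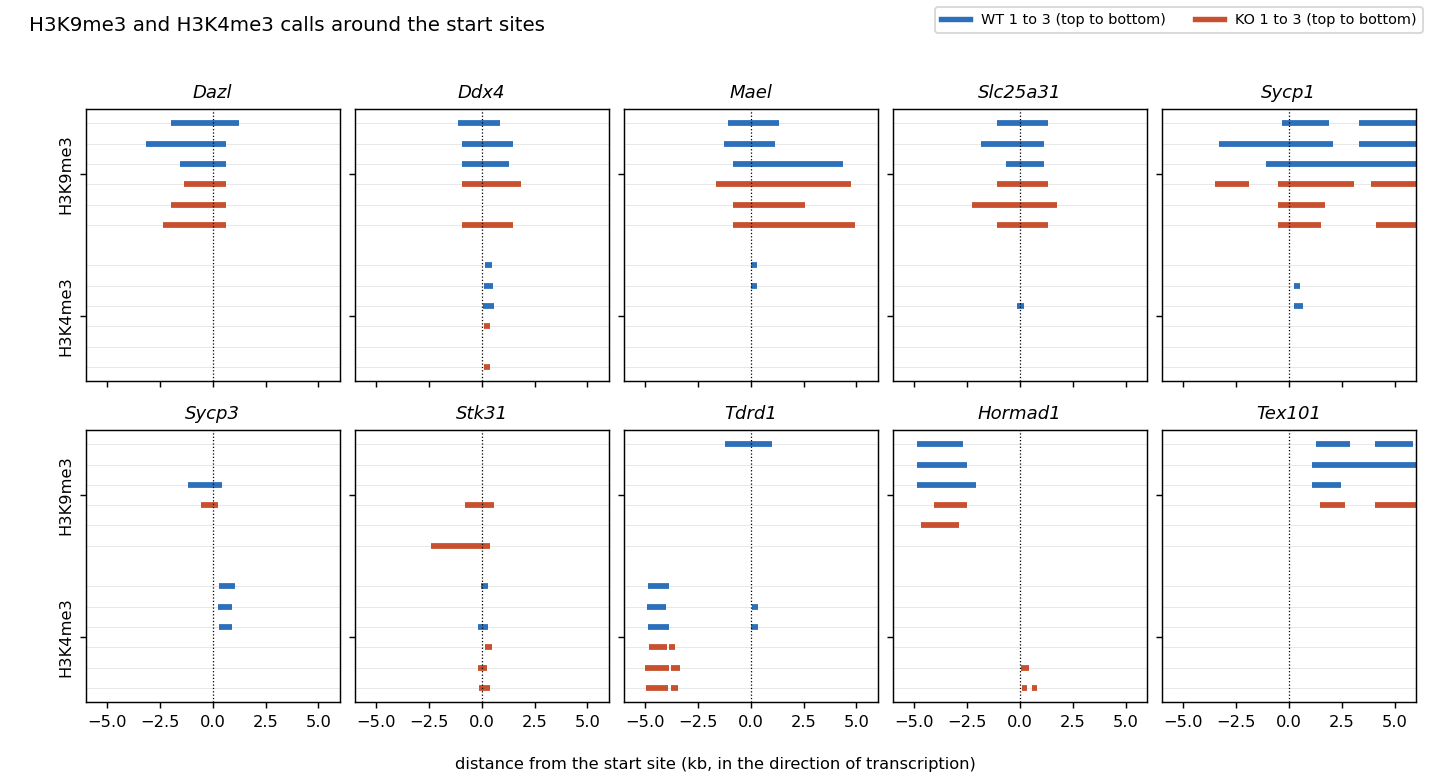
Called regions of H3K9me3 and H3K4me3 from 6 kb before to 6 kb after the start site of each of the 10 germline genes, with 1 line per library, WT above KO. H3K9me3 calls span the start site of Dazl, Ddx4, Mael, Sycp1 and Slc25a31 in WT and KO, and the H3K4me3 peaks are short (225 to 732 bp at the start sites) and lie mostly just downstream of the start.

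H3K27me3 and H3K9me3 were called together at the start sites. Within 1000 bp, and in at least 2 of 3 libraries, both marks were present at 5 of the 10 genes in WT and at 6 in KO, where Stk31 joined Dazl, Ddx4, Mael, Sycp1 and Slc25a31. The same held for 303 of 21938 protein-coding genes in WT (1.38%) and for 268 in KO, 196 of them in both. In a list of 59 other germline genes, chosen with earlier results of these data known, both marks were present at 20 in WT (33.9%). They were present at 16 in KO, and all 16 were among the 20.

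H3K4me3 peaks at the start sites were small, and fewer were called in KO. Within 1000 bp of the start site 4, 5 and 6 of the 10 genes had a peak in WT1, WT2 and WT3, and 2, 2 and 3 in KO1, KO2 and KO3, which adds up to 15 of 30 pairs of gene and library in WT and 7 of 30 in KO. Over all protein-coding genes the shares were 57.1%, 56.1% and 57.6% in WT and 55.9%, 57.3% and 57.5% in KO. The 23 peaks had enrichments over input of 2.85 to 8.41 fold (median 5.21), below the median of every whole list, 6.63 to 7.71 fold.

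Sycp3, a structural protein of the meiotic chromosome axis, had a peak in 3 of 3 WT and 0 of 3 KO libraries. It covered 701, 677 and 621 bp of the 2001 bp around the start site in WT and 0, 0 and 0 bp in KO (666 ± 41.1 bp against 0, SD, n = 3; exact permutation test, two-sided p = 0.1, the smallest that 20 assignments allow). The peak lay 260 to 1031 bp downstream of the start site, beyond the 100 bp of the promoter rule above, with enrichments of 5.21, 5.6 and 6.5 fold and −log10 q-values of 7.3, 7.5 and 11.4. The share of genes with this pattern was 0.278% in WT only and 0.251% in KO only within 1000 bp, and 0.278% and 0.438% over the promoter from 5000 bp upstream, where none of the 10 genes had it.

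Ddx4 had 308, 426 and 534 bp of H3K4me3 in WT and 257, 0 and 297 bp in KO, with enrichments of 4.24, 6.41 and 6.30 fold in WT, 3.78 in KO1 and 2.85 in KO3. All KO values lay below all WT values (exact permutation test, two-sided p = 0.1, n = 3). Mael had 268 and 260 bp in WT1 and WT2, Sycp1 309 and 420 bp in WT2 and WT3, and Tdrd1 293 and 288 bp in WT2 and WT3, and none of these 3 genes had a peak in KO. Slc25a31 had a single peak of 340 bp in WT3, and Dazl and Tex101 had none in any library. At Stk31 the peak was present in both genotypes, with 364, 0 and 491 bp in WT and 298, 430 and 507 bp in KO. Hormad1 went the other way, with 0, 0 and 0 bp in WT and 0, 415 and 458 bp in KO. Single genes other than Sycp3 and Ddx4 therefore overlapped between the genotypes.

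Over the whole windows, H3K4me3 coverage was lower in all KO than in all WT libraries at 2 of the 8 genes with a call, Ddx4 and Sycp3, and higher at 0, against 7.25% and 24.5% of all genes with a call. The larger peaks in the windows of Tdrd1 and Hormad1 belonged to neighbours, Ccdc186, Vwa2 and Golph3l, whose start sites lie within 1000 bp of them.

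H3K27ac was called at few start sites, and no start site was called in KO libraries alone. Away from the start sites, calls in KO alone covered 5594 bp (KO2) and 594 bp (KO3) of the Tex101 gene. They also covered 1124 bp upstream of Hormad1 in KO1. By the promoter rule, 0 of the 10 genes had H3K27ac in all libraries of 1 genotype and in none of the other, where 0.948% of all genes had it in WT only and 0.287% in KO only. Within 1000 bp, 3, 4 and 4 genes were called in WT and 2, 3 and 1 in KO, against 60.3%, 60.0% and 60.3% and 58.5%, 58.6% and 57.6% of all genes. Sycp3 had it in all 6 libraries, with 58.7, 65.7 and 69.4 scaled reads per kb in WT and 67.6, 57.3 and 71.2 in KO (log2 difference 0.01, SE 0.12, edgeR quasi-likelihood test, Benjamini-Hochberg adjusted p = 0.962). This is the gene whose H3K4me3 peak was called in no KO library. Dazl had 1365, 1165 and 1365 bp in WT and 965, 1165 and 0 bp in KO. Mael was called in WT1, WT3 and KO2, Sycp1 in WT2 and WT3, and Stk31 in WT2, while Ddx4, Slc25a31, Tdrd1, Hormad1 and Tex101 had no call.

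In the windows of 6 genes 9 H3K27ac regions could be tested, of which 1, at Sycp3, lay over a start site. Of the 9, 1 was lower in KO and 0 higher, where 8.19% of 24039 regions were higher and 4.56% lower. The lower region is described next. It lay inside Stk31, 19.8 to 27.6 kb from the start site (chr6:49415401-49423200), and overlaps the H3K9me3 region described above. Its scaled density was 64.1, 66.4 and 61.9 reads per kb in WT and 53.0, 48.5 and 44.1 in KO, without overlap (log2 difference −0.41, SE 0.0906, edgeR quasi-likelihood test, Benjamini-Hochberg adjusted p = 0.0108). Without KO replicate 3 the log2 difference was −0.34 and the adjusted p 0.0586. A neighbouring H3K27ac region of Stk31, 13 to 19 kb from the start site, had 60.2 ± 2.44 in WT and 50.9 ± 5.73 in KO (log2 difference −0.25, adjusted p = 0.162 by the same test). Upstream of Tdrd1, the region from −6.0 to −2.0 kb over the start of Ccdc186 had 83.5 ± 11.7 in WT and 61.4 ± 6.41 in KO (log2 difference −0.43, adjusted p = 0.058, edgeR quasi-likelihood test, Benjamini-Hochberg). Covered H3K27ac length was lower in all KO than in all WT libraries at 1 of the 8 genes with a call, Sycp1, and higher at 0, against 8.2% and 21.6% of all genes with a call.

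**Figure D4:**
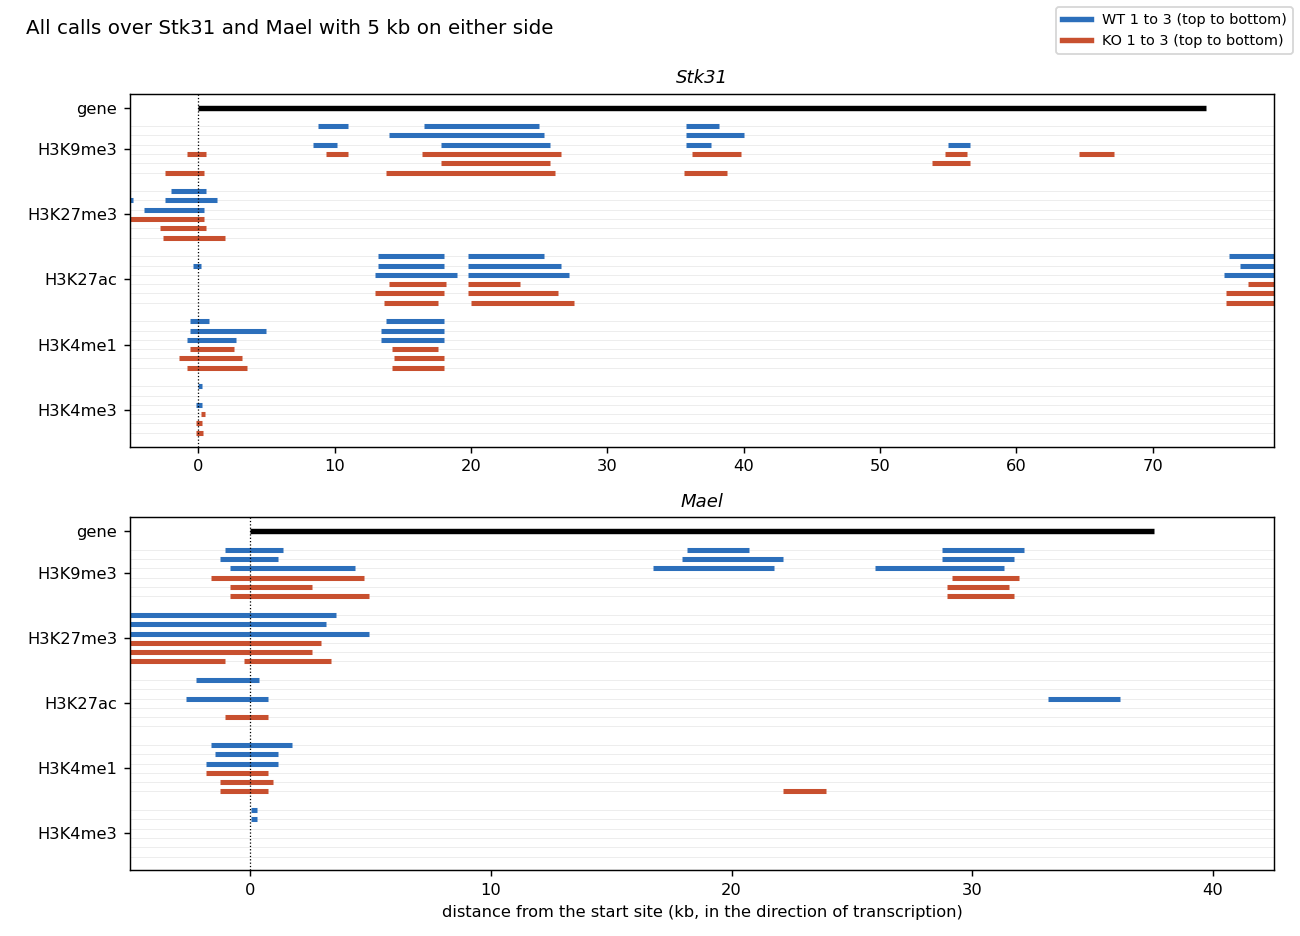
Called regions of all 5 marks over Stk31 and Mael with 5 kb on either side, by distance from the start site in kb, with 1 line per library. Stk31 shows H3K9me3 calls within 13.8 to 26.6 kb and H3K27ac calls within 19.8 to 27.6 kb inside the gene in all 6 libraries. Mael shows H3K9me3 calls within 16.7 to 22.1 kb inside the gene in the 3 WT libraries alone. These extents are merged over libraries, and calls of single libraries can be shorter.

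H3K4me1 was called at the start sites of 9 of the 10 genes, all but Tex101, with similar calls in both genotypes. It was present within 1000 bp at 9, 9 and 8 genes in WT and at 9, 9 and 9 in KO, since Ddx4 lacked it in WT3, beside 68.9% to 70.1% of all protein-coding genes. Only at Mael did all KO libraries lie below all WT libraries, with 2001, 2001 and 2001 bp in WT and 1747, 1947 and 1747 bp in KO (exact permutation test, two-sided p = 0.1, n = 3). At Dazl the scaled densities were 62.2, 56.9 and 55.9 reads per kb in WT and 57.9, 55.1 and 60.4 in KO. At Sycp3 they were 69.6, 66.9 and 77.9 in WT and 67.0, 70.3 and 67.8 in KO, over a region that reached from −4.2 to 4.0 kb. By edgeR and by DESeq2, 0 of the 14 H3K4me1 regions tested passed in either direction (1, downstream of Hormad1 near Golph3l, had an unadjusted edgeR p under 0.05, and without WT replicate 2 edgeR called 1 of the 14 lower, not over a start site), where 4.0% of 44625 regions were higher and 1.64% lower in KO. By the promoter rule 0 genes were called in WT only and 0 in KO only, beside 0.374% and 0.155% of all genes, and in covered length 0 of 10 genes had all KO libraries below or above all WT libraries, beside 15.4% and 11.7%.

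**Figure D5:**
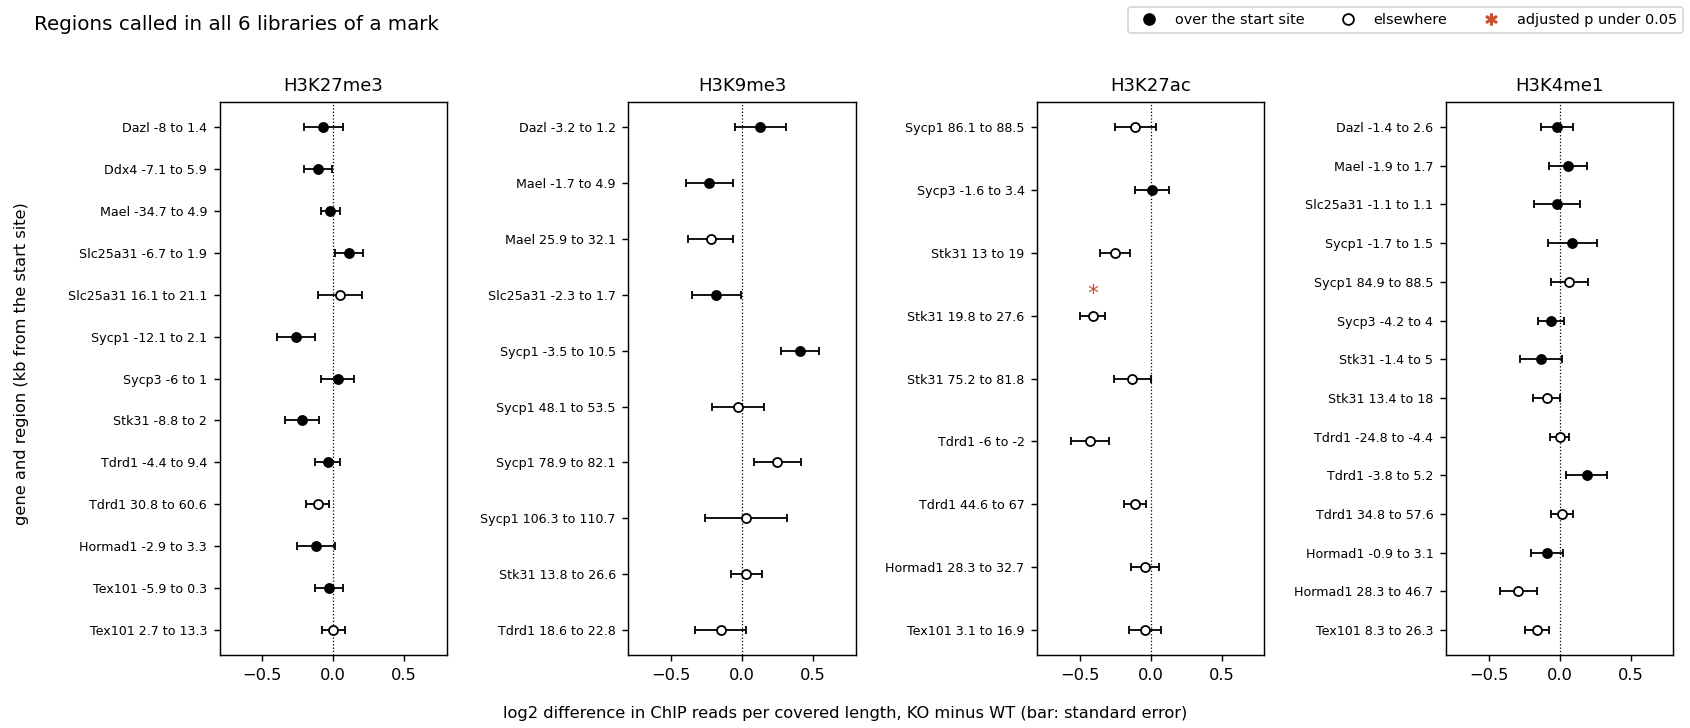
Log2 difference of KO minus WT with its SE (edgeR quasi-likelihood fit on ChIP reads with covered length as offset) for every region of the 10 germline genes called in all 6 libraries, by mark. Filled points lie over a start site and an asterisk marks an adjusted p under 0.05, which the H3K27ac region inside Stk31 (−0.41) alone carries.

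The list of 59 other germline genes, which includes further piRNA, meiosis and spermatogenesis genes, was read in the same way at the promoter from 5000 bp upstream. In at least 2 of 3 libraries, 43 of 59 had H3K27me3 in WT and 41 in KO, 23 and 18 had H3K9me3, 21 and 20 had H3K4me3, 33 and 28 had H3K27ac, and 52 and 54 had H3K4me1. Over all protein-coding genes, 38.3% had H3K27me3 in WT and 38.6% in KO, and 12.4% and 10.4% had H3K9me3. The shares were 53.8% and 54.2% for H3K4me3, 61.6% and 60.0% for H3K27ac, and 70.5% and 69.9% for H3K4me1. None of the 59 had H3K9me3 or H3K4me1 in all libraries of 1 genotype and in none of the other. Over all protein-coding genes, 0.529% had H3K9me3 in WT only and 0.0912% in KO only, and for H3K4me1 0.374% and 0.155%. H3K4me3 was called in KO only at Rpl10l and D1Pas1 and in WT only at none, beside 0.438% and 0.278% of all protein-coding genes. At Rpl10l, an autosomal copy of the X-linked ribosomal protein gene Rpl10 that acts in spermatogenesis, it covered 0, 0 and 0 bp in WT and 497, 511 and 421 bp in KO, and H3K27ac covered 0, 0 and 0 bp in WT and 1500, 1900 and 1400 bp in KO. Rpl10l and D1Pas1 are both near-copies of other genes, so reads that map to several places and were removed could bear on their values, and this was not tested. H3K27me3 was called in WT only at Tdrd9 and in KO only at Terb1, beside 0.602% and 0.479% of all protein-coding genes. Within 1 Mb of Tdrd9 and Terb1 the ratio of KO to WT input reads in the H3K27me3 lists was 0.6 and 1.16. The value at Terb1 is close to the shift over all H3K27me3 calls (17.21 input reads per kb in WT and 19.75 in KO). The value at Tdrd9 is not. Terb1 lies on chromosome 8, and in the H3K27ac list the ratio around it was 1.34, against 0.99 over all calls. It was raised in the H3K4me1 list as well, and lay closer to that of all calls in the H3K9me3 list. The part of input in the Terb1 and Tdrd9 calls was not tested. H3K27ac was called in WT only at Tdrd5 and Syce1 and in KO only at Rpl10l, beside 0.948% and 0.287% of all protein-coding genes.

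In the edgeR quasi-likelihood test (Benjamini-Hochberg), 0 of 39 other germline genes with an H3K27me3 region changed, and 1 of 11 with an H3K9me3 region was lower, Dpep3 (log2 difference −0.51, SE 0.1, adjusted p = 0.0428). H3K27ac was higher at 3 of 25, Nanos3, Dpep3 and Syce2 (log2 differences of 0.59, 0.55 and 0.30), and lower at 0. H3K4me1 was higher at 4 of 52 and lower at 1. Over all regions tested, 1.7% were higher and 1.04% lower for H3K27me3, and 0.168% higher and 0.267% lower for H3K9me3. For H3K27ac 8.19% were higher and 4.56% lower, and for H3K4me1 4.0% and 1.64%. These are shares of regions and not of genes. Nanos3, Dpep3 and Syce2 all lie on chromosome 8, where the ratio of KO to WT input reads around them was 1.34 to 1.38 in the H3K27ac and H3K4me1 lists. In the H3K9me3 list the ratio around Dpep3 was 1.27, against 1.06 over all calls. The gene lower for H3K4me1 was Tdrd9 (log2 difference −0.38), where the ratio in the H3K4me1 list was 0.5. The part of input in these differences was not tested.

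A list of 26 genes that encode the silencing machinery named above was also read. H3K27me3 was called in KO only at the promoters of Tfdp1, which encodes a partner of E2F proteins, and Dnmt3l, a cofactor of de novo DNA methylation, and in WT only at none. Over all protein-coding genes the shares were 0.479% in KO only and 0.602% in WT only. Of 24 genes with an H3K27ac region, 5 were higher and 3 lower in KO by edgeR's quasi-likelihood test, beside 8.19% and 4.56% of all H3K27ac regions. The de novo DNA methyltransferase gene Dnmt3b had 86.8, 89.5 and 92.6 scaled H3K27ac reads per kb in WT and 69.2, 67.4 and 67.8 in KO (log2 difference −0.40, Benjamini-Hochberg adjusted p = 1.45e-05, edgeR quasi-likelihood test), and was lower for H3K4me1 too (−0.15). Ehmt1, an H3K9 methyltransferase, was lower for H3K27ac (−0.34), whereas Dnmt1, the maintenance DNA methyltransferase, was higher (0.16), beside a shift of all H3K27ac regions by −0.131 on the log2 scale when TMM was set on raw reads. None of the 8 genes with an H3K27me3 region and none of the 2 with an H3K9me3 region passed the test. Over all regions, 1.7% were higher and 1.04% lower for H3K27me3, and 0.168% and 0.267% for H3K9me3.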

How the data were processed

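Calls of 30 ChIP-seq libraries, 3 IκBα-WT and 3 IκBα-KO per mark, were read over 10 germline genes taken by name. The other gene lists were chosen with earlier results of these data known. Per the study's methods and the submitters' processing notes, the authors trimmed reads with Trim Galore 0.6.6, aligned them to GRCm38 with Bowtie2 2.4.4 (H3K4me3, H3K27me3 and H3K4me1), marked duplicates with SAMtools 1.15 and called regions in each library against 1 input per genotype. The aligners for H3K27ac and H3K9me3 are not given in the sources used here, and the methods do not name H3K9me3, though some steps are stated for all marks. The labels give the antibody of H3K4me1 also for H3K27ac, whereas the methods name another. For H3K4me3 the authors deposited MACS2 2.2.7.1 peaks with a score, a fold enrichment (a linear ratio over input) and p- and q-values on the −log10 scale. For the other 4 marks the authors deposited epic2 regions in steps of 200 bp (the notes name SICER 0.0.52), each with ChIP and input read counts, a log2 fold over input, a score and a p-value. The deposited lists hold regions with a false discovery rate or q-value under 0.05, so sequence outside them has no value.

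Calls were set against GENCODE M21 genes with 5000 bp on either side. Regions of the 6 libraries of a mark were merged where they overlapped, and the ChIP counts of those called in all 6 with at least 10 reads were fitted in edgeR 4.0.16 (R 4.3.3; TMM normalization, covered length as an offset, quasi-likelihood test, threshold 0.05 after Benjamini-Hochberg), 1 fit per mark with no covariates. Scaled densities are counts per kb of called sequence divided by the library's effective size relative to the geometric mean of the 6. Tested on simulated data, the fit recovered 95% to 100% of regions changed by 1 on the log2 scale. Only changes of 1 and 2 were simulated, with 1 dispersion for all regions of a mark. The simulation therefore does not tell how often smaller differences, such as those at the 10 genes, would be found. Bp values were compared with an exact permutation test over libraries. Replicate numbers of WT and KO did not pair the libraries (correlations of same-numbered deviations −0.018 to 0.027). Genes named were all 10 members and, in the other lists, those called in 1 genotype only and up to 3 per mark with the smallest adjusted p. Alternatives were other normalizations, DESeq2 1.42.0, a replicate block, stricter calls, other windows and each library left out. Python 3.11.15, pandas 2.3.3 and SciPy 1.17.1 were used.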

Additional observations from a re-analysis of the deposited data

How the results depend on the processing

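At the promoters of the 10 genes, the counts called in 1 genotype only stayed at 0 under stricter calls and equal list lengths. With each library left out in turn they ranged from 0 to 1 for H3K4me3 in WT only, H3K4me3 in KO only, H3K9me3 in KO only and H3K27ac in WT only (without WT3, KO1, KO2 and WT1, respectively), and taking 1000 bp on either side gave 1 for H3K4me3 in WT only (Sycp3). That count, whose alternatives were chosen after seeing the data, ranged from 1 to 3 with each library left out: without WT1 it took in Sycp1 and Tdrd1, and without WT3 it took in Mael. With equal numbers of top-ranked peaks, 15 pairs of gene and library had a start-site peak in WT and 4 in KO.

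Covered H3K4me3 length was −15.6% in KO over the windows and −60.6% over gene bodies alone. Scaled to the ChIP reads in calls, densities differed by −13.8% (H3K27me3), 20.9% (H3K9me3) and −21.3% (H3K27ac), against −4.6%, 6.98% and −11.5% unscaled. These percentages carry no spread and were not tested. The reads used for scaling themselves differed between libraries, from 12105343 in WT1 to 8548342 in KO2 for H3K9me3. In edgeR's main fit the median log2 difference of these genes' regions was −0.041 (H3K27me3), 0.002 (H3K9me3) and −0.113 (H3K27ac).

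Counts over all regions moved more. TMM on raw reads, which shifted the median of all regions by −0.095 (H3K27me3), 0.086 (H3K9me3), −0.131 (H3K27ac) and 0.053 (H3K4me1) on the log2 scale, called 128 H3K27me3 regions higher and 482 lower, 88 and 30 H3K9me3 regions, 721 and 4459 H3K27ac regions, and 3327 and 347 H3K4me1 regions. Without TMM, H3K27ac had 1193 higher and 2228 lower and H3K4me1 1179 lower. Regions of like length gave 391 lower for H3K27me3, 218 higher and 233 lower for H3K9me3, 1069 higher for H3K27ac and 2191 lower for H3K4me1. DESeq2 gave 115 higher and 158 lower for H3K9me3. With each library left out, H3K27me3 had 180 to 260 higher and 85 to 248 lower, H3K9me3 11 to 35 and 21 to 64, H3K27ac 692 to 886 lower and H3K4me1 414 to 473 lower. None of these settings called a region of the 10 genes higher, and H3K27ac regions called lower numbered 0 to 3 (0 without KO replicate 3, 2 without TMM, 3 with TMM on raw reads, 1 with DESeq2). Without WT replicate 2, 1 H3K4me1 region of these genes was called lower. With the replicate number as a block the fit called 34 H3K9me3 regions higher and 56 lower, and 2 H3K27ac regions of these genes lower; the numbers did not pair the libraries.

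Called lists limit all of this: reads outside calls are unknown, H3K4me3 has no counts, and with 3 libraries per genotype the exact permutation test of a single value cannot go below p = 0.1. Only 3 H3K27me3 regions of these genes, and none of the other marks, were of like length in all libraries.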

Other observations

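The E-box CACGTG was also counted over RefSeq promoters grouped by chromatin state in WT (within 1000 bp of the start site, in at least 2 of 3 libraries). Of 220 genes with both H3K27me3 and H3K9me3 and a promoter sequence, 32 held an E-box (14.5%), against 9.57% of 5526 genes with H3K27me3 alone, 6.5% of 754 genes with H3K9me3 alone and 9.19% of 16539 protein-coding genes. Leaving out the 10 genes and the 59 other germline genes, 22 of 196 genes with both marks held an E-box (11.2%). Among the other germline genes 13 of 49 held it (26.5%). These shares describe the promoter table and were not tested.

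Inside Stk31, H3K27ac and H3K9me3 were each called in all 6 libraries of the mark, and their regions overlap when merged over libraries. The deposited lists do not say whether both marks lay on the same chromosomes or in different cells of a culture.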
